A study of Mus musculus with 6 samples.

Results

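The Hox genes of adult muscle stem cells (MuSCs) are described here, in cells that carry or lack the transcriptional co-factor TAF4A. The members are the protein-coding rows of the deposited expression table whose symbol is Hoxa, Hoxb, Hoxc or Hoxd followed by a number, and 31 of the 22081 rows met that rule. The mouse annotation used here (GENCODE M21) holds 39 such genes. All 11 Hoxa genes, 8 of 10 Hoxb genes, 8 of 9 Hoxc genes and 4 of 9 Hoxd genes had a row. Hoxb1, Hoxb13, Hoxc12, Hoxd1, Hoxd10, Hoxd11, Hoxd12 and Hoxd13 were not analysed here. The measurement was RNA-seq of freshly isolated MuSCs from C57BL/6 mice, with 3 control and 3 Taf4asKO libraries. Taf4asKO mice combined the tamoxifen-inducible Pax7CRE-ERT driver with floxed Taf4a alleles (flox/flox), in which exons 11 to 12 are removed after tamoxifen, given to animals of 8 to 20 weeks. The labels name the control libraries WT. According to the methods of the study, however, control animals were floxed littermates, which covers animals with and without the Cre allele. The labels do not say whether the control animals received tamoxifen. The Cre driver is active in cells that express Pax7, so the deletion is made in MuSCs and not in other cells that a sort may carry along.

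Hox genes encode homeodomain transcription factors that stand in 4 clusters, Hoxa on chromosome 6, Hoxb on chromosome 11, Hoxc on chromosome 15 and Hoxd on chromosome 2. Genes of the same number in different clusters are paralogues, and the number follows the position in the cluster from its 3′ end. In the embryo, genes with low numbers are switched on early and far to the front, whereas genes with high numbers mark the posterior trunk, the limbs and the tail. Many adult mesenchymal cells and MuSCs keep part of the code of the body region from which they came. In these data limb and trunk muscles were pooled before the sort, so each value is an average over cells from several regions. The share of each muscle and the number of mice in a library are not given in the sources used here.

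The deposited values, called normalized counts below, are rounded read counts that the authors had scaled to a common library size. They summed to between 12338676 and 14551732 per library. The 14 MuSC markers all had a row and summed to 68724 to 74071 in control and 69914 to 71653 in Taf4asKO libraries, and Pax7, which defines these cells, was at 12082, 12244 and 13007 in control and 10669, 10363 and 11164 in Taf4asKO. By limma 3 of the 14 were lower (Myf5, log2 fold change -0.85, Cdh15, -0.52, and Itga7, -0.43) and 3 higher (Sdc4, 0.88, Vcam1, 0.74, and Heyl, 0.57). For this and the other marker lists, the share over all genes tested was 6.71% lower and 5.93% higher. Markers of other cells were present too. All 15 markers of fibro-adipogenic progenitors, matrix-producing cells of muscle that express Hox genes as well, had a row and summed to 84218 to 128758 against 77442 to 113334. By limma 3 of them were lower (Cd34, log2 fold change -1.97, Dpt, -1.69, and Col3a1, -1.58) and 2 higher (Lox, 1.59, and Gsn, 0.77). Col3a1 was the largest of them in control, at 46225, 47112 and 47700 against 13082, 17573 and 16995, and so weighs on the sum. Of the markers not called, Fbn1 and Thy1 had log2 fold changes below 0 and the rest above 0. Ly6a, which encodes the SCA1 protein that the sort selects against, was at 2 to 14 in control and 8 to 13 in Taf4asKO, and Pdgfra, a defining marker, was at 49, 139 and 152 against 160, 203 and 247 and did not pass the test. The 10 endothelial markers summed to 969 to 1508 against 1613 to 2206, and the 8 glial markers to 5660 to 8791 against 9113 to 10129, with no overlap between groups. No endothelial marker was called, while among glial markers Ngfr was lower and Sox10 and Mbp were among those higher. Of 12 immune markers only 5 had a row, at 481 to 590 against 697 to 944, while Ptprc, Adgre1, C1qa, C1qb, Itgam, Cd3e and S100a8 had none. Of these 5, Lyz2 was at 94, 357 and 320 against 465, 729 and 483 and did not pass the test, Cd74 was lower, and none of the 4 besides Lyz2 had a log2 fold change above 0. Mural markers (9 of 9), tendon markers (6 of 6) and myofibre markers (10 of 10) overlapped between groups and summed to 25703 to 30652, 2055 to 14220 and 1392 to 4371 in control and to 26526 to 31345, 7109 to 16299 and 2519 to 3127 in Taf4asKO. The largest mural marker is Notch3, which is also on the MuSC list, and the mural genes Rgs5 (1153 to 2426 against 3755 to 4237, log2 fold change 1.06) and Myh11 (2537 to 4021 against 4141 to 6082, 0.69) were higher without overlap. By the study's own account the sorted cells were only partly pure. The part of these other cells in the Hox values was not tested, and fewer cells of a type cannot be told apart from less RNA per cell. The targeted gene, listed as Taf4, stood at 613, 534 and 478 in control and 631, 565 and 574 in Taf4asKO (log2 fold change 0.13, SE 0.12, adjusted p = 0.524, limma), so the count over the whole gene did not separate the labels. It adds reads from exons outside the deletion, and exons of 4921531C22Rik lie opposite to it. The study itself reports that Taf4a was almost absent from Taf4asKO MuSCs, as transcript by RT-qPCR in freshly isolated cells and as protein by western blot in cultured cells.

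To show the DNA from which the most relevant transcripts start, the 250 bases before the start of 3 genes of the Hoxa cluster are given from RefSeq (GRCm38.p6). They are Hoxa5, which was lower in Taf4asKO, and Hoxa7 and Hoxa10, strongly expressed genes of the same cluster that did not pass the test. All 3 genes lie on the minus strand, and the sequences read 5′ to 3′ along the gene. Capitals mark matches to CCAAT (bound by NF-Y), GGGCGG (Sp1) or TATAAA (the TATA box), searched on both strands.
Hoxa5: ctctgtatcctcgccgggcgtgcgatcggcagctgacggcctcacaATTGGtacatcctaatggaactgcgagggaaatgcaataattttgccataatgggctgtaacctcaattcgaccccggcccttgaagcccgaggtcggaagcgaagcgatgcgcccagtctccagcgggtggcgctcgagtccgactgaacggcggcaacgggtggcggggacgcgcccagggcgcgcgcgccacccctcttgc
Hoxa7: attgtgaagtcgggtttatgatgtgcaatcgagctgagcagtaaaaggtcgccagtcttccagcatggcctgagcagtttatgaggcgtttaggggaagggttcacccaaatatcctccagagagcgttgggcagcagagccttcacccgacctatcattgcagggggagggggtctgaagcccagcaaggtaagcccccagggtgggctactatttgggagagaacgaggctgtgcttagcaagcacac
Hoxa10: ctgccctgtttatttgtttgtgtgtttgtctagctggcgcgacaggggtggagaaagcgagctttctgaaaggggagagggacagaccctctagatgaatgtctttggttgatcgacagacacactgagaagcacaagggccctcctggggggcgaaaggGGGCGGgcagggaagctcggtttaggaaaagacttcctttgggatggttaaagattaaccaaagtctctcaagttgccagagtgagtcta
The Hoxa5 sequence is chr6:52204588-52204837 and holds CCAAT on the opposite strand, read here as its reverse complement, 204 bases before the start. The Hoxa7 sequence is chr6:52218574-52218823, with none of the 3 motifs, and its RefSeq start lies 138 bases inside the gene's span in the deposited table. The Hoxa10 sequence is chr6:52240855-52241104 and holds GGGCGG 90 bases before the start. Hoxa10 has a second entry in that table, for a start inside the gene (chr6:52234940-52235189), which is not shown and holds CCAAT and TATAAA. Of 31 Hox genes, 16 had an entry in the promoter table. CCAAT was in an entry of 9 of these 16 genes, GGGCGG of 7 and TATAAA of 3, whereas 33.8%, 32.7% and 12.4% of all 32851 promoters held them. A match describes letters in this window and not a bound site. Hoxc11 and Hoxc10 had no entry.

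Control MuSCs expressed a mid-to-posterior set of Hox genes, mainly from the Hoxc and Hoxa clusters. Levels are compared between genes per kilobase (kb) of merged exon length. The Hoxc genes made up 52.6% ± 2.68 (SD, n = 3) of the summed Hox level in control libraries and the Hoxa genes 36.6% ± 0.485. Hoxb genes made up 5.06% ± 0.55 and Hoxd genes 5.69% ± 1.68. Within the clusters, numbers 1 to 3 together held 2.998% ± 0.43 of the level, numbers 4 to 8 held 47.8% ± 2.03, and numbers 9 to 13 held 49.2% ± 2.39. Group 10 alone, which is Hoxa10 and Hoxc10 here, held 29.4% ± 2.77.

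**Figure D1:**
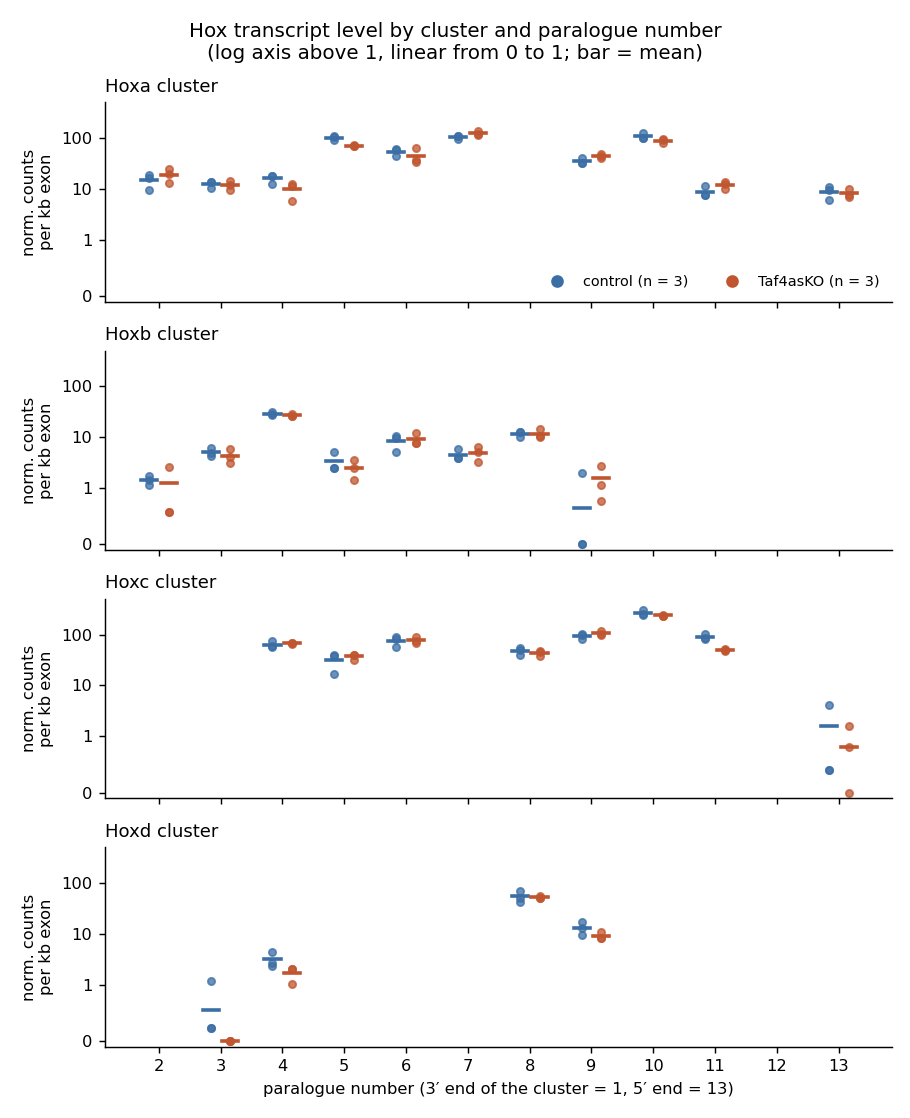
Normalized counts per kb of exon (vertical axis, logarithmic above 1 and linear from 0 to 1) for 30 Hox genes with a row, by paralogue number (horizontal axis) and cluster (panels). Each point is a library and each bar a mean of 3, and an empty position is a gene not shown, a gene without a row or a number the cluster lacks. Hoxc10 stands highest in both groups, and numbers 5 to 10 of Hoxa and 4 to 11 of Hoxc stand above most Hoxb and Hoxd genes.

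Hoxc10, a posterior gene used in hindlimb and lumbar patterning, was the most abundant Hox transcript. It stood at 242.5, 258.8 and 298.6 normalized counts per kb in the 3 control libraries, a level above that of 91.3% of the tested protein-coding genes. These values did not overlap those of any other Hox gene. Next came Hoxa10 at 107.8 ± 16.8, Hoxa7 at 104.1 ± 6.75, Hoxa5 at 101.0 ± 10.8, Hoxc9 at 94.5 ± 11.2, Hoxc11 at 90.4 ± 10.1, Hoxc6 at 76.0 ± 15.96, Hoxc4 at 63.9 ± 9.94 and Hoxd8 at 54.8 ± 14.7 per kb. Together the first 9 genes held 75.2% of the summed level. In 27 of the 30 steps from one gene to the next in the order, the ranges of the control values of the neighbours overlapped. The ranges were compared as a whole, and not gene against gene inside each library. The exceptions were the steps below Hoxc10, below Hoxc8 (48.0 ± 6.71) and below Hoxb4 (29.0 ± 2.15).

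The median tested protein-coding gene stood at 44.9 per kb in control libraries, and 11 Hox genes stood above it. These 11 were the first 9 genes with Hoxa6 (53.8 ± 8.94) and Hoxc8. The lower part of the order began with Hoxa9 at 34.9 ± 4.03 and Hoxc5 at 31.6 ± 12.5, where control replicate 2 lay at 17.2 against a highest value of 39.5. Hoxb4 was the highest Hoxb gene at 26.9, 31.2 and 28.8 per kb, and Hoxd8 the highest Hoxd gene at 50.7, 71.1 and 42.6. The next 13 genes ran from Hoxa4 (16.1 ± 3.09) to Hoxd4 (3.17 ± 1.09), with overlapping ranges at every step. In falling order they included Hoxa4, Hoxa2, Hoxd9, Hoxa3, Hoxb8, Hoxa13, Hoxa11, Hoxb6, Hoxb3, Hoxb7, Hoxb5 and Hoxd4.

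The exon length carries some of this order, because the annotation used here is another release than that of the authors. For 11 Hox genes it has exons beyond the span of the deposited row. Counting only exon bases inside that span raised Hoxa9 1.73-fold, from rank 12 to 9, and Hoxc6 1.52-fold, from rank 7 to 3, while Hoxc10 stayed first. The step between Hoxc8 and Hoxa9 then turned around, with Hoxa9 at 60.5 and Hoxc8 at 53.5 per kb, so this step and the place of Hoxa9 below the median gene depend on the annotation. Some exons are also shared. Hoxc10 and Hoxc5 have 166 bases in common on the same strand, and Hoxd3 shares exons with Hoxd4, so part of the reads of these genes could not be assigned to either.

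Members with very few reads stood in the Hoxb, Hoxc and Hoxd clusters. Hoxd3, an anterior gene, was at 1, 1 and 5 normalized counts in control MuSCs and at 0, 0 and 0 in Taf4asKO libraries. Hoxb2 was at 5, 6 and 4 against 2, 2 and 9, Hoxb9 at 0, 5 and 0 against 3, 7 and 2, and Hoxc13, the most posterior Hoxc gene, at 10, 1 and 1 against 4, 2 and 0. These 4 genes had a mean under 5 over the 6 libraries and were not tested. At such counts a difference between groups was not detectable.

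Most Hox genes did not pass the test for a difference between control and Taf4asKO MuSCs, and 2 genes, Hoxc11 and Hoxa5, were lower in Taf4asKO. A gene was called changed at an adjusted p under 0.05 (limma, adjusted over all 18562 genes tested) and a fold change of at least 1.3. Of the 27 Hox genes tested, 2 (7.41%) were lower in Taf4asKO and 0 were higher. Among all genes tested, 6.71% were lower and 5.93% higher, 12.6% in all, so the Hox count lay near or below the background. The same 2 Hox genes had an unadjusted p under 0.05, against 28.8% of all genes, and none was called higher by limma-voom either. The median log2 fold change of the tested Hox genes was -0.09, beside 0.004 for all genes, with 16 genes below 0 and 11 above. For 18 of the 27 genes (66.7%) the 95% interval lay within a 2-fold change either way, which held for 56.9% of all genes. The interval reached beyond a 2-fold change for Hoxa2, Hoxa4, Hoxa11, Hoxb3, Hoxb5, Hoxb7, Hoxc11, Hoxd4 and Hoxd9.

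**Figure D2:**
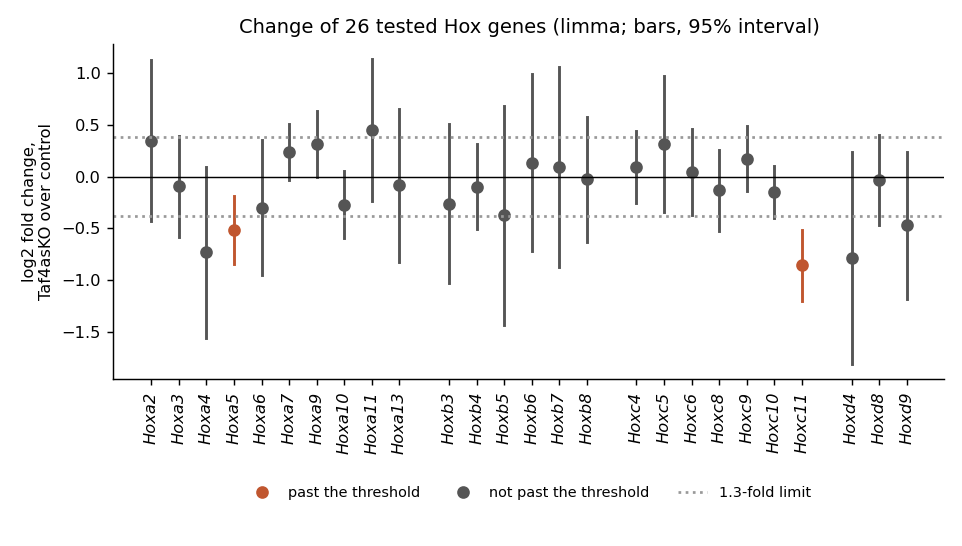
Log2 fold change, Taf4asKO over control (vertical axis), of 26 tested Hox genes in cluster order (horizontal axis), with 95% intervals from limma over 3 libraries per group. Only Hoxa5 (-0.52) and Hoxc11 (-0.86) passed the threshold, and all other estimates lay between -0.79 and 0.45.

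Hoxc11 takes part in hindlimb and lumbosacral patterning and lies at the 5′ side of Hoxc10 (chr15:102954427-102957708, plus strand, mm10). It stood at 206, 169 and 173 normalized counts in control libraries and at 103, 102 and 95 in Taf4asKO libraries. Every Taf4asKO value lay below every control value, and the Taf4asKO libraries were close together. The mean fell from 182.7 ± 20.3 to 100 ± 4.36 (SD, n = 3), which is 1.81-fold lower (log2 fold change -0.86, SE 0.15, 95% interval -1.20 to -0.51, adjusted p = 0.00664, limma). No other annotated exon overlaps it. Leaving out any library kept the call, with adjusted p of 0.00692 to 0.041.

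Hoxa5 helps to pattern the cervical and upper thoracic region (chr6:52201754-52204587, minus strand). It stood at 193, 168 and 208 normalized counts in control MuSCs and at 129, 136 and 130 in Taf4asKO libraries, again without overlap. Its mean fell from 189.7 ± 20.2 to 131.7 ± 3.79, 1.43-fold lower (log2 fold change -0.52, SE 0.15, 95% interval -0.85 to -0.19, adjusted p = 0.0447, limma). The call was close to the threshold. It was lost when control replicate 1 or 3 or any Taf4asKO library was left out (adjusted p of 0.105 to 0.153) and held without control replicate 2 (0.018). It was also lost with limma-voom (adjusted p = 0.082), without a filter on low values (0.0501) and with total-count scaling (0.0673).

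The neighbours of both genes in the clusters did not pass the test. Hoxc10 counted 463, 494 and 570 in control libraries and 467, 451 and 453 in Taf4asKO libraries (log2 fold change -0.15, adjusted p = 0.424), with overlapping groups. Hoxc9, a thoracic gene, was at 239, 199 and 251 against 244, 285 and 247 (log2 fold change 0.17, adjusted p = 0.457). In the Hoxa cluster, Hoxa7 was at 312, 277 and 309 against 335, 337 and 388 (log2 fold change 0.24, adjusted p = 0.232), with every Taf4asKO value above every control value although the change did not pass the test. Hoxa6 was at 52, 38 and 51 against 30, 32 and 55, and Hoxa4 at 29, 28 and 20 against 9, 20 and 18 (log2 fold change -0.73, adjusted p = 0.226). Hoxa10, a gene of the lumbar region and the limb, was at 322, 416 and 320 against 257, 316 and 298 (log2 fold change -0.27, adjusted p = 0.246), also without overlap.

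**Figure D3:**
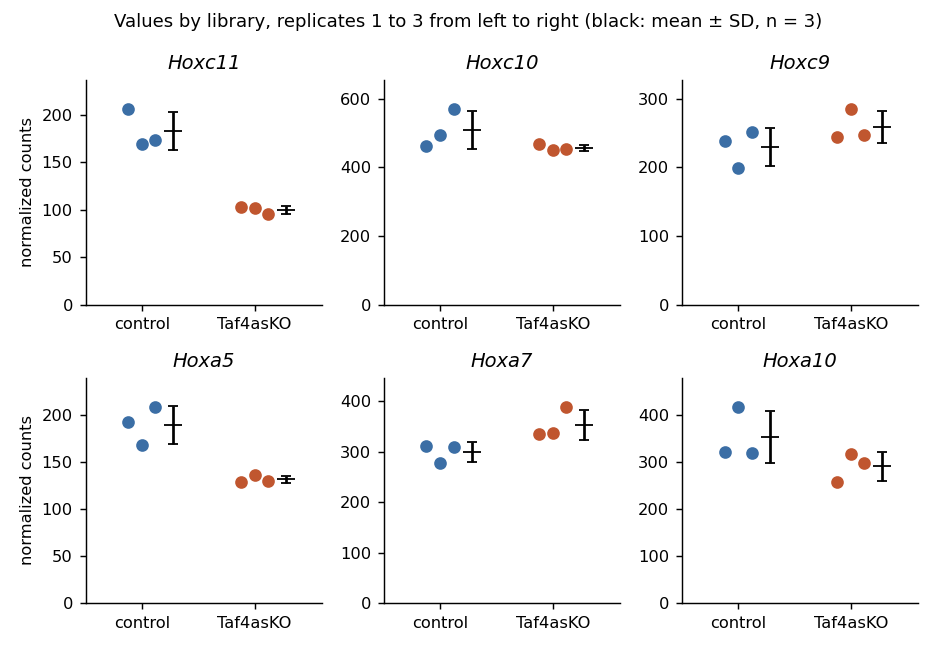
Normalized counts (vertical axes, from 0) in each library of Hoxc11, Hoxa5 and 4 genes of the same clusters, control in blue and Taf4asKO in orange, with mean and SD in black. Hoxc11 and Hoxa5 separate downward by the widest relative distance, Hoxa7 and Hoxa10 separate by less, and Hoxc10 and Hoxc9 overlap.

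In all, 5 of the 27 tested Hox genes (18.5%) had groups that did not overlap, which are Hoxa5, Hoxa7, Hoxa10, Hoxc11 and Hoxd4, beside 33.0% of all genes tested. Hoxd4 stood at 13, 8 and 7 against 3, 6 and 6 (log2 fold change -0.79, SE 0.46, adjusted p = 0.291), at few counts and with exons shared with Hoxd3.

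To compare a lowered gene with its neighbour inside the same library, ratios of normalized counts were formed for 4 pairs, chosen after the values were seen. Hoxc11 over Hoxc10 was 0.445, 0.342 and 0.304 in control and 0.221, 0.226 and 0.210 in Taf4asKO libraries. Hoxa5 over Hoxa7 was 0.619, 0.607 and 0.673 against 0.385, 0.404 and 0.335. Neither ratio overlapped between groups, which restates the values that led to the choice of these pairs, so no test is given. Hoxa5 over Hoxa4 (7.69 ± 2.37 against 9.45 ± 4.23) and Hoxa5 over Hoxa6 (4.07 ± 0.355 against 3.64 ± 1.10) overlapped.

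Among the remaining genes of the thoracic and lumbar range, Hoxa9 was at 182, 182 and 221 normalized counts in control MuSCs and 264, 221 and 241 in Taf4asKO (log2 fold change 0.31, 95% interval -0.01 to 0.63, adjusted p = 0.181). Hoxc8 was at 141, 115 and 152 against 106, 135 and 130, Hoxc6 at 214, 140 and 195 against 217, 166 and 178, and Hoxd8 at 139, 195 and 117 against 136, 153 and 142. Their log2 fold changes were -0.13, 0.04 and -0.03. Hoxc5 and Hoxc4, at the anterior end of the rows in this cluster, had log2 fold changes of 0.32 and 0.09. The 6 tested Hoxb genes lay between -0.38 (Hoxb5) and 0.13 (Hoxb6), and Hoxb4, the best expressed of them, was at 69, 80 and 74 against 68, 67 and 73 (log2 fold change -0.10, 95% interval -0.51 to 0.32). The most posterior Hoxa genes, which pattern the distal limb, were low: Hoxa11 was at 17, 17 and 26 against 28, 23 and 31 (log2 fold change 0.45, adjusted p = 0.371) and Hoxa13 at 15, 23 and 27 against 24, 17 and 19. None of these passed the test.

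The make-up of the Hox code by cluster was close in both groups. Hoxa genes held 36.6% ± 0.485 of the summed level per kb in control and 36.7% ± 1.39 in Taf4asKO, Hoxb genes 5.06% ± 0.55 and 5.27% ± 0.31, Hoxc genes 52.6% ± 2.68 and 52.6% ± 1.67, and Hoxd genes 5.69% ± 1.68 and 5.35% ± 0.223. The summed level per kb was 1283, 1202 and 1341 in control and 1149, 1187 and 1211 in Taf4asKO libraries, where the lowest control library and the highest Taf4asKO library overlapped. Within each replicate number, by which the libraries pair, the Taf4asKO sum per kb was the lower, but the total Hox count was not (3136, 2966 and 3273 in control, 2897, 2999 and 3037 in Taf4asKO), being higher in Taf4asKO for number 2. The Hoxa sum was lower within each number as well, at 467.6, 446.6 and 485.7 in control and 411.5, 428.0 and 464.0 in Taf4asKO. Sums by cluster in Taf4asKO were 0.931 (Hoxa), 0.971 (Hoxb), 0.925 (Hoxc) and 0.881 (Hoxd) of control.

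By paralogue number, the shares of 3 of 12 groups (7, 9 and 11) and the summed levels of 4 (7, 9, 10 and 11) did not overlap between control and Taf4asKO, where 33.0% of all single genes did not overlap. The sums of group 9 were separated only by 156.0 in control against 156.4 in Taf4asKO. Group 11 (Hoxa11 and Hoxc11) summed to 99.1 ± 9.34 normalized counts per kb in control and 61.4 ± 1.54 in Taf4asKO, and its share was 7.78% ± 0.671 in control and 5.20% ± 0.264 in Taf4asKO. Group 7 (Hoxa7 and Hoxb7) held 8.51% ± 0.22 against 10.8% ± 0.76, and group 9 (Hoxa9, Hoxb9, Hoxc9 and Hoxd9) 11.2% ± 0.358 against 13.6% ± 0.627. Within group 11 the genes went opposite ways, with Hoxc11 lower and Hoxa11 at a log2 fold change of 0.45 that did not pass the test. Group 10 summed to 341.0, 386.0 and 396.4 per kb in control and 323.2, 332.9 and 328.4 in Taf4asKO, without overlap, while its shares of 29.4% ± 2.77 and 27.8% ± 0.557 overlapped. The shares of group 5 overlapped too, at 10.6% ± 1.34 and 9.28% ± 0.198. Numbers 9 to 13 together summed to 600.8, 620.5 and 660.7 per kb in control and 555.1, 569.1 and 553.1 in Taf4asKO, again without overlap, with shares of 49.2% ± 2.39 and 47.3% ± 1.43. These sums are descriptions without a test, and the shares of a library are not independent of each other.

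**Figure D4:**
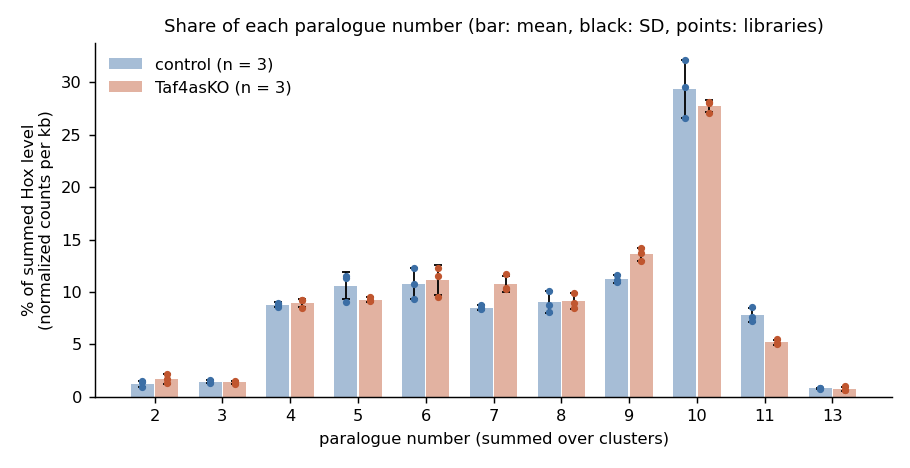
Share of the summed Hox level per kb (vertical axis, %) held by paralogue numbers 2 to 13 (horizontal axis) in control and Taf4asKO libraries, with bars for the mean, black lines for the SD and points for 3 libraries per group. Numbers 7 and 9 are higher and number 11 lower in Taf4asKO without overlap, and number 10 is the highest in both.

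The levels followed a similar order in both groups. Spearman's rho between the mean normalized counts of control and Taf4asKO over the 31 genes, not divided by length, was 0.978. Over pairs of libraries it was 0.962 to 0.978 within groups (6 pairs) and 0.944 to 0.976 between groups (9 pairs). Gene length is shared by all libraries and contributes to these values.

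Hox proteins bind DNA together with TALE homeodomain partners, and the Meis genes encode a family of them. Of the 3 Meis genes, Meis2 and Meis1 were higher in Taf4asKO, as were 5.93% of all genes tested. Meis2 was at 94, 73 and 77 normalized counts in the control group and 125, 136 and 124 in Taf4asKO (log2 fold change 0.66, adjusted p = 0.0343), and Meis1 at 235, 213 and 261 against 310, 310 and 344 (0.44, adjusted p = 0.0487). The groups did not overlap for either gene, and exons of Gm16140 lie opposite to Meis1. Meis3 was at 127, 131 and 138 against 115, 126 and 135 (log2 fold change -0.08, adjusted p = 0.785). The Meis genes are part of a wider list of such partners, whose counts are not reported here. Of that list, Pbx2 (log2 fold change -0.12), Pbx3 (-0.21), Pknox1 (0.09) and Pknox2 (-0.08) did not pass the test either. Meis2 lost its call without control replicate 3, Meis1 without control replicate 1 or 2, and both without any 1 Taf4asKO library. With limma-voom Meis1 lost its call (adjusted p = 0.0743) and Meis2 kept it (0.046).

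Polycomb complexes hold Hox genes silent outside their domain, and Trithorax complexes keep them active. Of 32 Polycomb genes tested, 2 were lower and 2 higher (12.5%, beside 12.6% of all genes), with a median log2 fold change of -0.04. At an unadjusted p under 0.05 there were 6 lower and 7 higher of the 32, beside 28.8% of all genes. Pcgf2, a subunit of Polycomb complex PRC1, was at 230, 240 and 266 against 174, 157 and 142 (-0.64, adjusted p = 0.0172), and Kdm2b, which recruits a PRC1 variant to CpG islands, at 383, 384 and 377 against 279, 277 and 211 (-0.59, adjusted p = 0.0215). Pcgf5 (log2 fold change 0.49, adjusted p = 0.0278) and Ring1, an E3 ligase of PRC1 (0.39, adjusted p = 0.0429), were higher, but limma-voom called 0 Polycomb genes higher. Of 16 Trithorax and related genes 2 were lower and 0 higher (12.5%, again beside 12.6% of all genes; 1 and 0 by limma-voom). At an unadjusted p under 0.05 there were 3 lower and 4 higher, beside 28.8% of all genes, and the median log2 fold change was -0.04. The 2 called genes were the H3K79 methyltransferase Dot1l, at 3312, 2554 and 2959 against 2531, 1934 and 1849 (-0.49, adjusted p = 0.0453), and the remodeller ATPase Smarca4, at 2973, 3123 and 2693 against 2192, 2283 and 2201 (-0.39, adjusted p = 0.0211). With the replicate block, the counts were 3 lower and 3 higher Polycomb genes (Epop and Cbx7 in addition) and 3 lower Trithorax genes (with Kdm6b). That block called 18.1% of all genes. Kdm2b and Pcgf5 have exons of other genes on the opposite strand. Without Taf4asKO replicate 2, or without replicate 3, no Polycomb or Trithorax gene passed (limma). Smarca4 kept its call only without control replicate 3, Dot1l only without control replicate 2 or Taf4asKO replicate 1, and without control replicate 2 Kdm6b was lower and Dpy30 and Rbbp5 were higher. Of the Polycomb genes, Pcgf2 kept its call without any 1 control library or Taf4asKO replicate 1, Kdm2b without control replicate 2 or 3 or Taf4asKO replicate 1, Pcgf5 without any 1 control library and Ring1 only without control replicate 2.

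Retinoic acid sets Hox expression in the embryo. Of 16 tested genes of its pathway, 2 were lower and 1 was higher (18.8%, beside 12.6% of all genes), with a median log2 fold change of -0.002. Aldh1a2, which makes retinoic acid, was at 47, 176 and 60 normalized counts in control libraries and 9, 15 and 10 in Taf4asKO (log2 fold change -2.73, SE 0.46, adjusted p = 0.00468), with control replicate 2 far above the other control libraries, and it was called without any 1 of the 6 libraries. The receptor Rara was at 767, 791 and 670 against 588, 515 and 421 (-0.56, adjusted p = 0.0263), not called without control replicate 1 or Taf4asKO replicate 2 or 3. Aldh1a1, a related enzyme, was at 534, 457 and 578 against 726, 717 and 830 (0.54, adjusted p = 0.0179), not called without any 1 Taf4asKO library. With the replicate block Rxrg was higher as well (19, 66 and 70 against 97, 125 and 82), so that 2 were lower and 2 higher. The share of all genes called with that block was 18.1%.

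Among other transcription factors of position, which mark limb, trunk, head or girdle, the hindlimb factor Tbx4 was lower and 4 genes were higher in Taf4asKO. Of 31 listed genes 28 had a row and 26 were tested, 1 lower and 4 higher (19.2%, beside 12.6% of all genes), with a median log2 fold change of 0.13. Tbx4, a T-box factor, was at 413, 431 and 345 normalized counts in control MuSCs and 263, 291 and 286 in Taf4asKO (-0.49, adjusted p = 0.0311), and its call was lost without control replicate 1 or any Taf4asKO library. Tbx5, its forelimb counterpart, was at 0, 2 and 4 against 6, 5 and 7 and was not tested. Pitx1, a hindlimb factor as well, was at 3, 2 and 12 against 4, 11 and 13, whereas Pax3, a myogenic factor retained in MuSCs of many trunk and forelimb muscles, was at 336, 215 and 268 against 343, 303 and 322 (log2 fold change 0.26, adjusted p = 0.327). The 4 higher genes were the somite and limb muscle factor Meox2 (132, 146 and 234 against 333, 312 and 307, log2 fold change 0.94, adjusted p = 0.0147), Eya1 (0.75, adjusted p = 0.02), Zic1 (211, 195 and 220 against 358, 342 and 353, log2 fold change 0.75, adjusted p = 0.00366) and Msc (0.63, adjusted p = 0.00817). With the replicate block, which called 18.1% of all genes, Meox1 was added. Zic1, which has exons of Zic4 opposite to it, was the only gene of this list called without any 1 of the libraries, and without Taf4asKO replicate 2 or 3 it was the only one left.

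**Figure D5:**
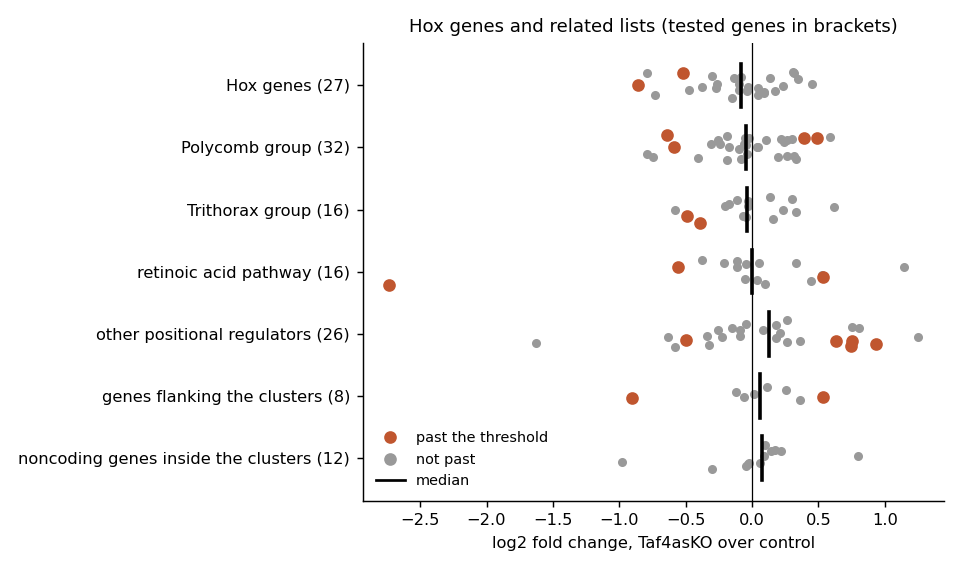
Log2 fold change, Taf4asKO over control (horizontal axis), of the tested Hox genes and of 6 related gene lists (rows, tested genes in brackets), with a point per gene, orange where it passed the threshold, and a black line at the median. The medians lie between -0.09 (Hox) and 0.13 (other positional regulators), and the gene farthest from 0 is Aldh1a2.

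The surroundings of the clusters were read as well. Of 13 noncoding rows inside or within 20 kb of the clusters, 12 were tested. By limma or limma-voom 0 were called, where limma called 12.6% of all genes. At an unadjusted p under 0.05 there were 0 as well, beside 28.8% of all genes. Many of these rows had few counts and wide intervals that held a 2-fold change, such as -1.45 to 1.63 for Gm28011. Hotair, transcribed between Hoxc11 and Hoxc12, counted 82, 44 and 40 in control and 48, 57 and 48 in Taf4asKO (log2 fold change -0.05, adjusted p = 0.94). Of 8 tested non-Hox genes next to the clusters 1 was lower and 1 higher (25%, beside 12.6% of all genes), with a median log2 fold change of 0.06. Smug1, a uracil-DNA glycosylase near the Hoxc cluster, was at 239, 260 and 210 against 122, 155 and 104 (-0.90, adjusted p = 0.00964), and Hibadh, a valine catabolism enzyme near the Hoxa cluster, at 275, 360 and 303 against 475, 452 and 429 (0.54, adjusted p = 0.0238). Smug1 lost its call without Taf4asKO replicate 3, and Hibadh without any library but control replicate 2. Of 9 ParaHox and cluster-linked homeobox genes only Evx2 had a row, at 0, 1 and 4 in both groups, and it was not tested.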

How the data were processed

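RNA of FACS-sorted MuSCs (SCA1-/CD45-/CD31- Integrin-a7+ or Pax7-zsGreen+, per the study) was sequenced from 10 ng per library with a stranded total RNA kit, single-end. Per the labels, the authors used Trimmomatic 0.39, STAR 2.6.0c (mm10), featureCounts 1.6.0 and DESeq2 1.14.1. Reads on several genes were excluded, and strand use in counting is not given in the sources used here. The deposited values are a score in unit terms: counts divided by DESeq2 size factors and rounded to whole numbers by the authors. Each gene's highest value was at least 4.

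Values were compared as log2(value + 1) with limma 3.58.1 (lmFit, eBayes with trend, two-sided) in R 4.3.3, for the 18562 genes whose mean over all libraries was 5 or more, and adjusted over all of them (Benjamini-Hochberg). Fold changes are on that scale and understate those of low genes. The call needed adjusted p under 0.05 and a fold of at least 1.3, as in the study's methods. The script was tested on simulated data. Levels per kb use merged exons of GENCODE M21. Promoter sequences and starts are from RefSeq. The study describes its quantified data as biological replicates. Nothing in the labels says that libraries came from separate animals, so p-values measure the spread between these libraries.

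Values were given in every library for Hox genes past the threshold, for the highest gene per kb of each cluster, for genes averaging at least 20 whose groups did not overlap, and for genes at 0 in a group. Of other lists, up to 6 members past the threshold were named. Further genes (neighbours of the changed genes, paralogues and Tbx5, Pitx1, Pax3 and Hotair) were added after their values were seen. Results that need certain genes are not reported here, among them 1 Hox gene on its own, which stays in the counts, sums and fits. The members and lists were chosen with earlier results of these data known.

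Labels give both groups replicate numbers 1 to 3. Deviations from group means correlated at 0.235, 0.126 and 0.15 for the same number and at -0.149 to 0.0141 otherwise, so the numbers were taken to pair the libraries. The p-values, intervals and shares in the text come from the fit without this pairing, unless the replicate block is named. The blocked fit is an alternative and called 18.1% of all genes.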

Additional observations from a re-analysis of the deposited data

How the results depend on the processing

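The Hox genes were refitted under 16 other fits and 3 changes of a limit. Of 490 values over 26 genes, 464 kept direction and side of the threshold, 11 lost the call and 15 changed sign. The count of lower Hox genes was 1 instead of 2 with limma-voom, without the filter, with total-count scaling and at adjusted p under 0.01, 0 at a fold limit of 2, and 1 to 2 when leaving out 1 library. In the steps to 1, Hoxa5 was lost. The count of higher Hox genes was 0 under every alternative run. Hoxc11 lost its call only at a fold limit of 2. The replicate block kept the 2 Hox calls (adjusted p = 0.00339 for Hoxc11 and 0.0359 for Hoxa5, limma) but raised the calls over all genes from 1246 lower and 1101 higher to 1667 and 1688 (18.1% of genes), and beside the list counts in the text it added no Hox call. Over all genes, 520 were lower and 330 higher at a fold limit of 2, 545 and 331 at adjusted p under 0.01, and 595 to 1505 and 341 to 1616 when leaving out 1 library. Among these 6 fits, the fewest calls came without Taf4asKO replicate 3 (595 lower) or 2 (341 higher).

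Sign changes came only from leaving out 1 library, in genes that did not pass the test, with log2 fold changes of -0.223 to 0.0438 for Hoxa3, -0.318 to 0.0861 for Hoxa13, -0.18 to 0.32 for Hoxb6, -0.10 to 0.34 for Hoxb7, -0.188 to 0.0776 for Hoxb8, -0.071 to 0.523 for Hoxc5, -0.14 to 0.17 for Hoxc6 and -0.20 to 0.17 for Hoxd8. The Hox median was -0.12 to -0.03 throughout.

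The control share of Hoxa was 40.4% and that of Hoxc 48.1% without length correction, and Hoxa was 39.7% with the longest transcript. With lengths chosen after seeing the data, Hoxa was 37.2% (exons within the deposited span) and 35.9% (exons free of other genes on the strand). For 9 of the 27 tested Hox genes, Hoxc11 with its larger change among them, the interval reached beyond a 2-fold change.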
